A study of Mus musculus with 2 samples.

Results

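Suprabasal keratinocytes of imiquimod-treated mouse back skin were selected from 2 single-cell RNA libraries by their own transcripts. A cell was counted when Krt1 and Krt10, the keratins of the differentiating epidermis, together made up at least 0.5% of its UMIs (unique molecular identifiers, 1 per captured transcript). It also had to hold less than 0.1% Krt79, fewer than 3 UMIs of the proliferation genes Mki67 and Top2a, and fewer than 3 UMIs of Cldn3. By this rule 242 cells were found among 21231 with 1000 or more UMIs, 200 or more genes and no more than 10% of UMIs from mitochondrial genes. They were 79 of 9605 cells in the Chrna5 knockout (KO) library, 0.822% (exact 95% interval 0.652 to 1.02), and 163 of 11626 cells in the wild-type (WT) library, 1.40% (1.20 to 1.63).

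The KO library came from Chrna5-/- mice, which lack the α5 subunit of the nicotinic acetylcholine receptor, and the WT library from wild-type mice. All animals were females aged 6 to 8 weeks that received 62.5 mg of 5% imiquimod cream on the shaved back on 6 days, with skin taken on day 7, so imiquimod is shared by both groups. The KO line had been backcrossed to C57BL/6N, while the labels name C57BL/6J as well as C57BL/6N for the animals used. Whether the libraries differ in genetic background beyond Chrna5 was not tested, and such a difference cannot be told apart from the genotype in any ratio given here. Skin was digested with collagenase and living cells were sorted by exclusion of SytoxBlue, a dye that enters dead cells. There were 5 mice per group by the labels, which leave unsaid how many of them went into a library. The cream-base control is not analysed here. With 1 library per genotype there is no replicate, so no test between genotypes was made. Ratios (KO over WT) are given with exact 95% intervals for counting error only, and genotype and library cannot be told apart. Chrna5 itself had 6 UMIs in the whole KO library and 12 in the whole WT library, and 0 in the suprabasal cells of both, which is too few to check the genotype labels.

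Keratinocytes leave the basal layer of the epidermis, stop expressing Krt5 and Krt14 and build up Krt1 and Krt10 filaments anchored in desmosomes as they pass through the spinous layer. They then make the granules, envelope proteins and lipids of the skin barrier. In psoriasis, and in the skin reaction to imiquimod, which activates Toll-like receptor signalling, these layers thicken and switch on the stress keratins Krt6, Krt16 and Krt17, the alarmins S100a8 and S100a9 and proline-rich envelope proteins.

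The 5 genes that mark the type were all abundant. Values are CPM, the UMIs of a gene summed over the suprabasal cells of a library and scaled so that all genes in those cells add up to the same total in both libraries. Krtdap, a secreted product of spinous cells, stood at 11139.3 CPM in KO and 12828.2 CPM in WT cells. Sbsn, suprabasin, stood at 1354.7 CPM in KO and 2054.7 CPM in WT cells. Calm4, a calmodulin-like protein of differentiating epidermis, stood at 7497.6 CPM in KO and 4247.0 CPM in WT cells. The keratins that chose the cells stood at 9072.8 CPM (Krt1) and 9887.0 CPM (Krt10) in KO and at 7115.1 CPM (Krt1) and 4914.5 CPM (Krt10) in WT cells. Other keratins and follicle markers bear on the label. Krt14 stood at 4865.9 CPM in KO and 7587.6 CPM in WT cells, whereas its partner Krt5 was at 245.8 CPM in KO and 306.9 CPM in WT cells. Krt2, a keratin of upper spinous cells, had 0 UMIs in both libraries, and Krt77 had 12 UMIs in KO and 7 in WT cells. Defb6, a beta-defensin listed among the markers of upper follicle keratinocytes, reached 4557.6 CPM in KO and 6625.2 CPM in WT cells. In the cells that met the keratin minimum but failed the exclusions, most of them for Krt79, Defb6 was higher still, at 12625.9 CPM in KO and 12556.7 CPM in WT cells. In cells rich in Krt5 and Krt14 it was at 401.1 CPM in KO and 938.1 CPM in WT cells. Defb6 in the selected cells thus lay between the other cell classes, and interfollicular and upper follicle suprabasal cells were not separated by the rule.

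Krt1 and Krt10 together took a median of 1.65% of a cell's UMIs in KO, with 10% of cells below 0.595% and a maximum of 4.90%. In WT cells the median was 0.897%, with 10% of cells below 0.554% and a maximum of 3.75%. Just inside the 0.5% minimum, from 0.5 to 0.6%, lay 8 KO and 33 WT cells, and just outside, from 0.4 to 0.5%, lay 7 KO and 43 WT cells. Krt14 was at 8371.7 CPM in KO and 7587.2 CPM in WT cells just inside, and at 8412.7 CPM in KO and 8945.9 CPM in WT cells just outside. Because more WT cells sat near the minimum, the comparison of shares turned with it. At a minimum of 1% the share was 0.604% in KO (58 cells) and 0.576% in WT (67 cells). Cell shares after tissue digestion and sorting also depend on how many cells of the layer were released, which was not tested.

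The median suprabasal cell held 34718 UMIs in KO and 34386 in WT, against a median of 6779 in all kept KO cells and 6375 in all kept WT cells. The lower end of the range differed. The 25th percentile was 26822.5 UMIs in KO and 3516.5 UMIs in WT, and 4 KO and 56 WT cells held under 10000 UMIs. Together, 56 marker genes of other lineages reached 0.1% of UMIs in 9 KO cells (11.4%) and 42 WT cells (25.8%). Of these, 3 KO and 38 WT cells were under 10000 UMIs. A share of 0.1% takes fewer UMIs in a shallow cell, and the flagged cells had a median of 38263 UMIs in KO and 2065 in WT. Whether shallow cells held more foreign transcripts beyond this was not tested. Monocyte and macrophage markers summed to 19.8 CPM in KO and 169.5 CPM in WT cells, with none of the 8 genes at 0 in either library. Fibroblast markers summed to 47.9 CPM in KO and 71.9 CPM in WT cells. T cell markers summed to 307.4 CPM in KO and 113.9 CPM in WT cells, nearly all from Trbc1 and Trbc2, while Cd3e and Cd2 were at 0 in both. No doublet caller was run. With cells under 10000 UMIs left out, all 25 list medians that could be recomputed stayed within their intervals. Shallow cells weigh little in summed UMIs, so leaving them out could hardly move these medians. With each cell weighted equally, 15 of the 25 stayed, 8 moved and 2 reversed. No barcode was shared by the suprabasal cells of both libraries.

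**Figure D1:**
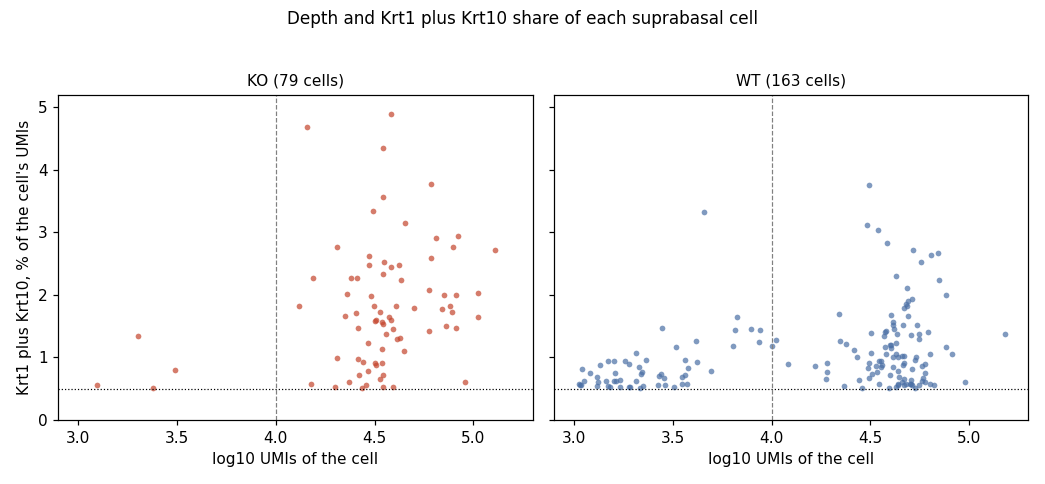
Each point is 1 suprabasal cell, with its depth (log10 UMIs) on the horizontal axis and its Krt1 plus Krt10 share (% of UMIs) on the vertical axis, for KO (left) and WT (right). The dotted line is the 0.5% minimum and the dashed line marks 10000 UMIs, to the left of which lie 4 KO and 56 WT cells.

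Of 7346 genes with at least 50 UMIs over both libraries, 373 were called higher in KO suprabasal cells (5.08%) and 233 were called lower (3.17%). A call means a ratio of at least 2-fold with an interval that leaves out 1. The median log2 ratio over all measured genes was 0.17, so the lists below are to be read against 0.17 and not against 0. Counts of calls in a list are likewise to be read against 5.08% higher and 3.17% lower. With median-ratio scaling, which takes out this shift, 243 genes were called higher and 304 lower, so the excess of higher calls depended on the scaling. The genes furthest below were alarmins, small proline-rich proteins, the Lce3 envelope genes and Krt6b. Those furthest above included Mt4, Dapl1, Gadd45g, Id1 and Hspa1a.

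S100a8 and S100a9 encode the subunits of calprotectin, a calcium- and zinc-binding alarmin that draws neutrophils. S100a8 (chromosome 3, 90668978 to 90670035) summed to 1293.5 CPM in KO and 23462.6 CPM in WT cells, 18.1-fold lower in KO (interval 17.6 to 18.7). S100a9 (chromosome 3, 90692632 to 90695721) summed to 1132.4 CPM in KO and 23864.0 CPM in WT cells, 21.1-fold lower (20.4 to 21.8). The difference did not rest on a few cells. Per 10000 UMIs, the KO cells ranged from 0 through a median of 5.79 to 85.4 for S100a8, and the WT cells from 0 through a median of 169.3 to 673.4. The lowest 10% of WT cells lay below 26.9 and the highest 10% of KO cells above 34.3. The lower quartile of the WT cells was 58.8, still under the KO maximum of 85.4, so the 2 distributions overlapped. Transcripts were nonetheless present in 74 of 79 KO cells and 161 of 163 WT cells. When every cell was thinned to 1000 UMIs, 53.2% of KO cells and 94.5% of WT cells kept an S100a8 UMI, against 0.750% of 1334 KO and 25.9% of 1665 WT fibroblast-type cells, which should lack the gene. Neutrophils also contain much S100a8. Neutrophil markers summed to 1.86 CPM in KO and 2.83 CPM in WT suprabasal cells, with Retnlg, Ly6g, Mmp8 and Elane at 0 in both. Whether RNA from neutrophils added to the S100a8 counts was not tested.

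Other antimicrobial genes were lower as well. Of 16 measured genes in the alarmin and antimicrobial list, 9 were called lower and 0 higher, with a median log2 ratio of -1.53. Slpi, an inhibitor of neutrophil elastase, was at 94.3 CPM in KO and 691.7 CPM in WT cells, 7.33-fold lower. Defb4, an inducible beta-defensin, was at 2.16 CPM in KO and 26.5 CPM in WT cells, 12.2-fold lower. Defb3 was at 8.66 CPM in KO and 37.6 CPM in WT cells, with 64.3% of the KO UMIs in 1 cell. Lcn2, a siderophore-binding protein, was at 19.8 CPM in KO and 169.1 CPM in WT cells, but fibroblast-type cells of the WT library held 845.9 CPM, so it can stem from free RNA. Other members were not called: Defb1 was at 171.3 CPM in KO and 117.4 CPM in WT cells, S100a14 at 1132.4 CPM in KO and 931.3 CPM in WT cells, and Defb6 was at 4557.6 CPM in KO and 6625.2 CPM in WT cells.

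**Figure D2:**
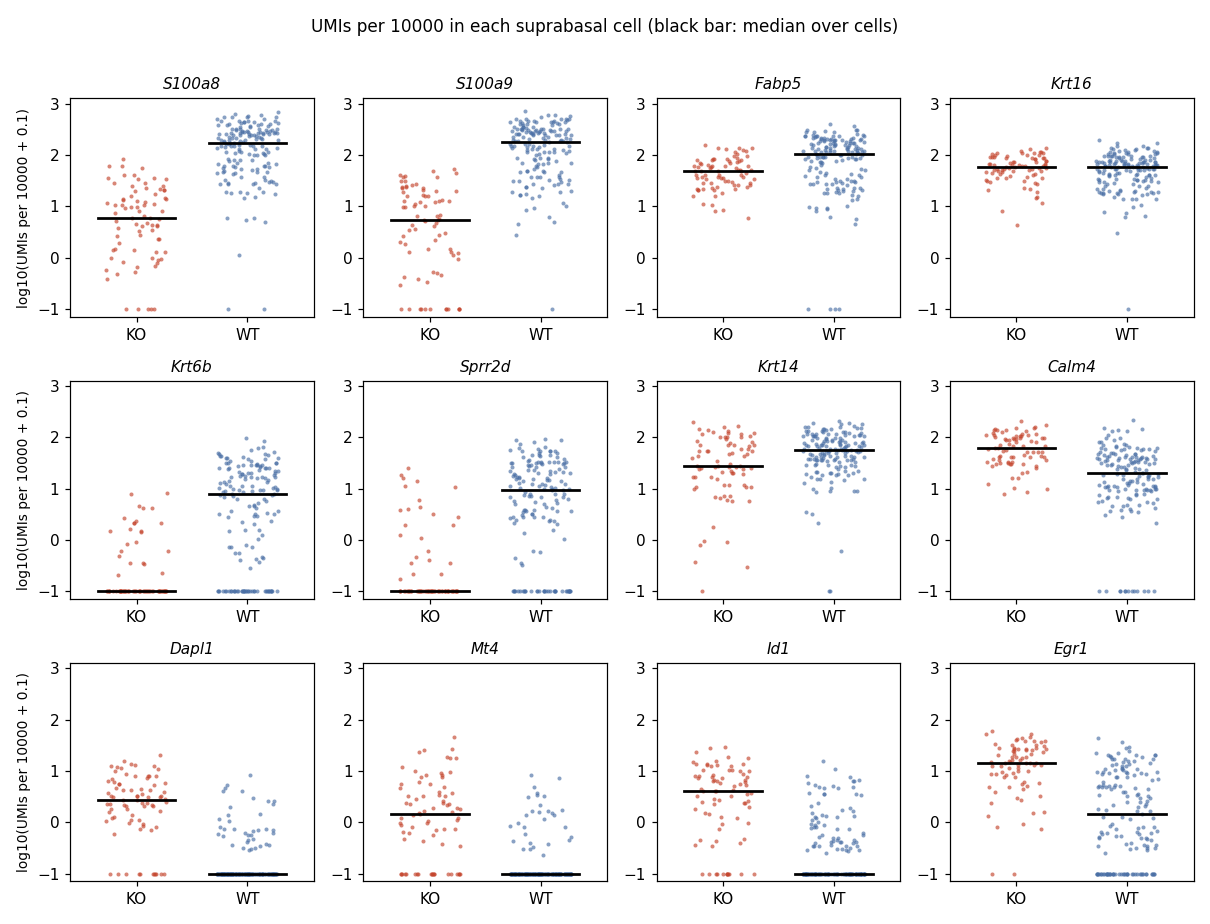
Each point is 1 suprabasal cell and each panel 1 gene, with KO left of WT; the vertical axis is log10 of UMIs per 10000 plus 0.1, so cells without a UMI lie at -1, and the black bar is the median over cells. For S100a8 the median was 5.79 per 10000 in KO and 169.3 in WT cells, while for Krt16 it was 59.6 in KO and 58.1 in WT cells.

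The small proline-rich proteins, which transglutaminases crosslink into the cornified envelope, were lower throughout. All 10 measured members were called lower, with a median log2 ratio of -3.03. Sprr1b, the most abundant, was at 1301.8 CPM in KO and 2632.9 CPM in WT cells, 2.02-fold lower. Sprr2d was at 185.8 CPM in KO and 1784.4 CPM in WT cells, 9.60-fold lower (8.84 to 10.4). It was found in 24 of 79 KO cells and 130 of 163 WT cells, and the 5 KO cells with most of it held 64.9% of its KO UMIs. Sprr2i had the largest ratio, 2.16 CPM in KO and 277.0 CPM in WT cells, 128-fold lower (61.9 to 318.9). Sprr2b, at 6.80 CPM in KO and 78.0 CPM in WT cells, had 77.3% of its KO UMIs in 1 cell, and its ratio moved from 0.0872 to 0.0237 without the top cell of each library. Sprr2 genes are close copies of each other, and the treatment of reads matching several of them is not known here, so single members are uncertain.

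The Lce3 genes, late envelope genes that are induced in injured and psoriatic epidermis, were all 6 called lower, with a median log2 ratio of -4.83. Lce3c was at 13.6 CPM in KO and 271.3 CPM in WT cells, 19.9-fold lower (14.8 to 27.6). Lce3d was at 13.3 CPM in KO and 266.5 CPM in WT cells. Lce3f was at 1.86 CPM in KO and 174.9 CPM in WT cells, 94.3-fold lower. Lce3e had 0 UMIs in KO and 189 in WT cells, which against a floor of 3 counts in the KO library is at least 41.2-fold lower. These genes were rare in both libraries: Lce3c was found in 5 KO and 40 WT cells, and its 5 top cells held 71.4% of its WT UMIs.

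Alarmins, small proline-rich genes and Lce genes lie together on chromosome 3 in the epidermal differentiation complex. Between S100a1 and S100a10 (chromosome 3, 90511034 to 93564643, build mm10), 39 genes were measured, 26 were called lower and 4 higher, and their median log2 ratio was -1.65. This region was looked at after the values were seen. Of the 15 genes that the naming rule placed furthest down, 12 lie in it. Loricrin (Lor), which lies in it too, went the other way.

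Upstream sequences of 4 genes that were lower together are shown, because they let the letters before neighbouring genes be compared. They are the 250 bases before the RefSeq start of each gene (GRCm38.p6), written along the gene's strand. Capitals mark AP-1 letters (TGANTCA) and C/EBP letters (TTNNGNAA), searched on both strands, 2 motifs of factors active in keratinocyte differentiation.
S100a8 (chr3:90668821-90669070, + strand): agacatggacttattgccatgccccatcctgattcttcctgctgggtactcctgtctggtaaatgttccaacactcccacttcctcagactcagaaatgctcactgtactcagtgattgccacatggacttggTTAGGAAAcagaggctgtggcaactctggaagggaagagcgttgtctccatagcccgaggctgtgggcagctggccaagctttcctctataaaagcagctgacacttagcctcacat
S100a9 (chr3:90695722-90695971, - strand): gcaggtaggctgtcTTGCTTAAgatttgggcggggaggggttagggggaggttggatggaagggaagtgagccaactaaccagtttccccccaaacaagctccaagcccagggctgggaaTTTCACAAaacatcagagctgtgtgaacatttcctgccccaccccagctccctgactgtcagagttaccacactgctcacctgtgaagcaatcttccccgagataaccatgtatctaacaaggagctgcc
Sprr2d (chr3:92338890-92339139, + strand): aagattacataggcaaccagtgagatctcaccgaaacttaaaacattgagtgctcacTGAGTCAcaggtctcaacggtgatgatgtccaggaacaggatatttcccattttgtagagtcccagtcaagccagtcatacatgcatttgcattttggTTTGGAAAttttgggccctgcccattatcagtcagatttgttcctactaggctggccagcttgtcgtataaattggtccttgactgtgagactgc
Sprr2e (chr3:92351893-92352142, + strand): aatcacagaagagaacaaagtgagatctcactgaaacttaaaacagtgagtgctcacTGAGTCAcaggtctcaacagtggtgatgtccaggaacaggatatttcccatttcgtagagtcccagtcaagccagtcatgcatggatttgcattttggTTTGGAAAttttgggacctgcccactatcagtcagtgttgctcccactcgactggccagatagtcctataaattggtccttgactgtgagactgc
The Sprr2d and Sprr2e sequences had the same base at 220 of 250 positions (88.0%, without gaps). Both hold TGAGTCA 193 bases before the start and TTTGGAAA 95 bases before it. S100a8 holds 1 C/EBP match and S100a9 holds 2, and neither holds an AP-1 match in this window. Of 32851 promoters in the same table, 6.75% hold the AP-1 letters and 36.8% the C/EBP letters in the same 250 bases. A match is a description of the letters and does not show that a factor binds.

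Of the 4 stress keratins, Krt6a and Krt6b were called lower and Krt16 and Krt17 were not. Krt6b was at 69.9 CPM in KO and 1455.9 CPM in WT cells, 20.8-fold lower (18.2 to 23.9), and was found in 24 KO and 123 WT cells. Krt6a was at 777.7 CPM in KO and 3046.8 CPM in WT cells, 3.92-fold lower. Their usual partner Krt16 stood at 6639.9 CPM in KO and 7657.3 CPM in WT cells, a ratio of 0.867 (0.853 to 0.882), and was found in 79 of 79 KO and 162 of 163 WT cells. Krt17 stood at 2346.0 CPM in KO and 3191.5 CPM in WT cells. The per-cell medians of Krt16 lay close together, at 59.6 UMIs per 10000 in KO and 58.1 in WT cells.

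Proteases and their inhibitors differed member by member. Of 24 measured kallikreins, serpins, cystatins and cathepsins, 2 were called higher and 6 lower, with a median log2 ratio of -0.46. Stfa1, a stefin that inhibits cathepsins, was at 958.3 CPM in KO and 4053.5 CPM in WT cells, 4.23-fold lower, whereas its relative Stfa3, the most abundant of the list in KO, was at 3127.4 CPM in KO and 3722.0 CPM in WT cells. Among kallikreins, which cut the desmosomes of shed corneocytes, Klk13 was 5.88-fold lower (7.73 CPM in KO, 45.5 CPM in WT) and Klk10 was 3.00-fold lower. Klk5, which starts the kallikrein cascade, was 2.22-fold higher (64.6 CPM in KO, 29.1 CPM in WT). Klk7 was at 199.4 CPM in KO and 271.5 CPM in WT cells and was not called. Spink5, the inhibitor of these kallikreins, was at 307.1 CPM in KO and 505.7 CPM in WT cells.

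Among IL-1 and IL-36 family genes, 2 of 10 measured members were called lower and 0 higher (median log2 ratio -0.53). Both were IL-36 cytokines, which keratinocytes release in psoriasis: Il1f6 (IL-36α) was at 24.7 CPM in KO and 96.2 CPM in WT cells, 3.89-fold lower, and Il1f9 (IL-36γ) was at 95.9 CPM in KO and 239.4 CPM in WT cells, 2.50-fold lower. Il1rn, the IL-1 receptor antagonist and the most abundant member, was at 191.7 CPM in KO and 330.9 CPM in WT cells. The receptor subunit Il1rl2 was at 24.1 CPM in KO and 23.6 CPM in WT cells.

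Chemokines did not share a direction. Ccl20, which attracts CCR6-bearing cells such as IL-17-producing T cells, was the most abundant, at 3658.4 CPM in KO and 1647.3 CPM in WT cells, 2.22-fold higher (2.16 to 2.28). Its per-cell median was 11.9 UMIs per 10000 in KO and 6.85 in WT cells. Cxcl2, which attracts neutrophils, was at 39.3 CPM in KO and 240.6 CPM in WT cells, 6.13-fold lower, but can stem from free RNA of other cells. Ccl5 had 0 UMIs in KO and 57 in 2 WT cells. The median log2 ratio of the 9 measured chemokines was 0.64 when UMIs were summed, and -1.19 when each cell was weighted equally.

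Several feedback genes of cytokine signalling were called higher. In the list of IL-17, TNF and NF-kB response genes, 4 of 17 were called higher and 1 lower (median log2 ratio 0.36). Nfkbia, the inhibitor of NF-kB, was at 2393.0 CPM in KO and 1038.0 CPM in WT cells, 2.31-fold higher (2.23 to 2.39). Nfkbiz, a co-activator induced by IL-17, was at 390.2 CPM in KO and 172.3 CPM in WT cells, 2.26-fold higher. The gene called lower was Il23a, the p19 subunit of IL-23, at 19.8 CPM in KO and 66.5 CPM in WT cells. In the JAK-STAT list, 5 of 16 were called higher and 0 lower (median 0.62). They included Socs3, a suppressor of STAT3 signalling, at 197.0 CPM in KO and 82.6 CPM in WT cells, and Il6, at 59.4 CPM in KO and 7.07 CPM in WT cells. Il6 can stem from free RNA of other cells. Pim1, the most abundant of the list, was at 454.9 CPM in KO and 358.6 CPM in WT cells. Of 30 interferon-stimulated genes only 6 had enough UMIs, of which 3 were called higher (median log2 ratio 1.01). Ifitm3, the most abundant, was at 523.8 CPM in KO and 274.7 CPM in WT cells. Irf1 was at 361.8 CPM in KO and 138.8 CPM in WT cells, 2.61-fold higher (2.37 to 2.87).

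Immediate early genes, which are switched on within minutes by growth factors, stress and tissue handling, were higher in part. Of 23 measured, 8 were called higher and 0 lower (median log2 ratio 0.48). Fos was at 1940.7 CPM in KO and 686.7 CPM in WT cells, 2.83-fold higher. Egr1 was at 1900.8 CPM in KO and 595.1 CPM in WT cells, 3.19-fold higher (3.06 to 3.34). Both differed less with a higher Krt1 plus Krt10 share: from 0.5 to 1%, from 1 to 1.5% and above 1.5%, the ratio of Egr1 was 4.80, 3.56 and 2.11 and that of Fos was 3.75, 2.96 and 1.86. The list median was 0.44, 0.82 and 0.16 in these ranges, the last beside 0.17 for all measured genes there. Myc was at 150.0 CPM in KO and 30.9 CPM in WT cells, a ratio of 4.85, which was 1.33 when each cell was thinned to 1000 UMIs and 1.78 with cells weighted equally. Jun was at 1188.0 CPM in KO and 1048.3 CPM in WT cells, and Ier2 at 571.4 CPM in KO and 593.9 CPM in WT cells. Heat shock genes, which also respond to tissue handling, had 4 of 16 called higher and 0 lower (median 0.66). Hspa1a was at 664.5 CPM in KO and 145.0 CPM in WT cells, 4.58-fold higher (4.21 to 4.99), and Hspa8 was at 1471.0 CPM in KO and 520.8 CPM in WT cells, 2.82-fold higher. Hsp90ab1, the most abundant, was at 2208.7 CPM in KO and 2097.8 CPM in WT cells. Mitochondrial UMIs, another measure of cell state after digestion, had a median of 3.21% in KO and 1.99% in WT suprabasal cells; the part of handling in these differences was not tested.

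Id genes encode inhibitors of basic helix-loop-helix factors and are direct targets of BMP signalling. Of 9 measured genes in this list, 4 were called higher and 0 lower (median log2 ratio 0.97). Id1 was at 540.2 CPM in KO and 113.1 CPM in WT cells, 4.78-fold higher (4.34 to 5.26), and was found in 67 of 79 KO cells and 70 of 163 WT cells. Thinned to 1000 UMIs, 45.6% of KO and 7.36% of WT cells kept an Id1 UMI, against 2.55% of KO fibroblast-type cells. Id3, the most abundant, was at 704.4 CPM in KO and 346.9 CPM in WT cells, 2.03-fold higher. Id4 was at 66.2 CPM in KO and 20.6 CPM in WT cells, 3.21-fold higher. Bmp2, a BMP ligand, was at 26.6 CPM in KO and 6.67 CPM in WT cells, with 25.6% of the KO and 30.3% of the WT UMIs in 1 cell each. The receptor genes Bmpr1a, at 56.0 CPM in KO and 35.4 CPM in WT cells, and Bmpr2, at 147.2 CPM in KO and 83.8 CPM in WT cells, were not called.

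The spinous layer list differed little in its median. Of 13 measured spinous genes outside the rule, 1 was called higher (Mt4) and 2 lower (Calml3 and Fabp5), with a median log2 ratio of 0.07, which was -0.09 with median-ratio scaling. Lgals7, a galectin and the most abundant, was at 21914.6 CPM in KO and 21868.5 CPM in WT cells, a ratio of 1.00 (0.993 to 1.01). Sfn, the epithelial 14-3-3 protein, was at 3123.4 CPM in KO and 2965.8 CPM in WT cells. Fabp5, the epidermal fatty acid binding protein, was the abundant exception, at 5988.3 CPM in KO and 14081.7 CPM in WT cells, 2.35-fold lower. Calml3, a calmodulin-like protein, was at 26.0 CPM in KO and 77.2 CPM in WT cells.

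Desmosome genes differed little. Of 13 measured, 1 was called lower and 0 higher, with a median log2 ratio of -0.03, which was 0.20 with cells weighted equally. Perp, the most abundant, was at 2714.3 CPM in KO and 2769.5 CPM in WT cells. Dsp (desmoplakin, the plaque protein that holds keratin filaments) was at 1209.7 CPM in KO and 1347.3 CPM in WT cells. Jup, plakoglobin, was at 752.9 CPM in KO and 708.3 CPM in WT cells. The desmosomal cadherin Dsg1a was at 276.1 CPM in KO and 157.6 CPM in WT cells, while Dsg1b was at 94.3 CPM in KO and 129.3 CPM in WT cells, and these close copies may share reads. The gene called lower was Cdsn, at 2.47 CPM in KO and 8.48 CPM in WT cells, which is near the level of free RNA. In the tight and adherens junction list, 0 of 16 measured genes were called in either direction (median -0.11). Cldn1, the claudin of the epidermal barrier, was at 243.7 CPM in KO and 320.4 CPM in WT cells, and Cdh1, E-cadherin, at 371.4 CPM in KO and 401.8 CPM in WT cells.

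Granular layer genes divided. Of 16 measured, 3 were called higher and 4 lower, with a median log2 ratio of -0.03, which was 0.09 with cells weighted equally. Loricrin (Lor), the main envelope protein, was at 98.6 CPM in KO and 18.4 CPM in WT cells, 5.37-fold higher. It was found in 20 KO and 16 WT cells, 5 cells held 89.0% of its KO UMIs, and 1 cell held 70.3% of its WT UMIs; without the top cell of each library the ratio was 12.0. Flg, profilaggrin, was at 76.4 CPM in KO and 34.3 CPM in WT cells, 2.22-fold higher, with 40.6% of its WT UMIs in 1 cell. The Flg call depended on the Krt1 plus Krt10 share. In cells with a share above 1.5% Flg was at 107.5 CPM in KO and 105.0 CPM in WT cells, and between 0.5 and 1% its ratio was 0.625 (0.158 to 1.81). Lor was at 140.4 CPM in KO and 13.8 CPM in WT cells above 1.5%. Between 0.5 and 1% Lor was at 10.3 CPM in KO and 29.9 CPM in WT cells. The WT cell with 70.3% of the WT Lor UMIs lay in this lower range, so the WT value there rests mostly on 1 cell. Whether the Lor call depends on the share can therefore not be told. The 13 Lce1 genes other than Lce1f together had 201 UMIs in 10 KO cells and 11 UMIs in 6 WT cells, and 93.5% of the KO UMIs lay in 5 cells. Genes called lower were Crct1 (136.1 CPM in KO, 619.0 CPM in WT), the protease Asprv1 that processes profilaggrin (69.0 CPM in KO, 313.9 CPM in WT), Cnfn, or cornifelin (162.3 CPM in KO, 423.0 CPM in WT), and Lce1f. Ivl, involucrin, was at 33.4 CPM in KO and 42.4 CPM in WT cells, and Tgm1, the transglutaminase that crosslinks the envelope, at 45.8 CPM in KO and 79.4 CPM in WT cells. Neither was called.

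Genes of barrier lipid synthesis had 1 of 22 called higher, 2 lower and a median log2 ratio of -0.13. With 5.08% called higher and 3.17% called lower over all measured genes, these counts are too small to set the list apart. Elovl4, which makes the very long acyl chains of barrier ceramides, was at 305.2 CPM in KO and 358.6 CPM in WT cells. The lamellar granule lipid transporter Abca12 was at 228.5 CPM in KO and 267.5 CPM in WT cells. Elovl6, which elongates palmitate, was at 38.7 CPM in KO and 16.2 CPM in WT cells, 2.39-fold higher. Sdr9c7, a dehydrogenase of barrier acylceramides, was at 8.04 CPM in KO and 19.2 CPM in WT cells, 2.39-fold lower.

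**Figure D3:**
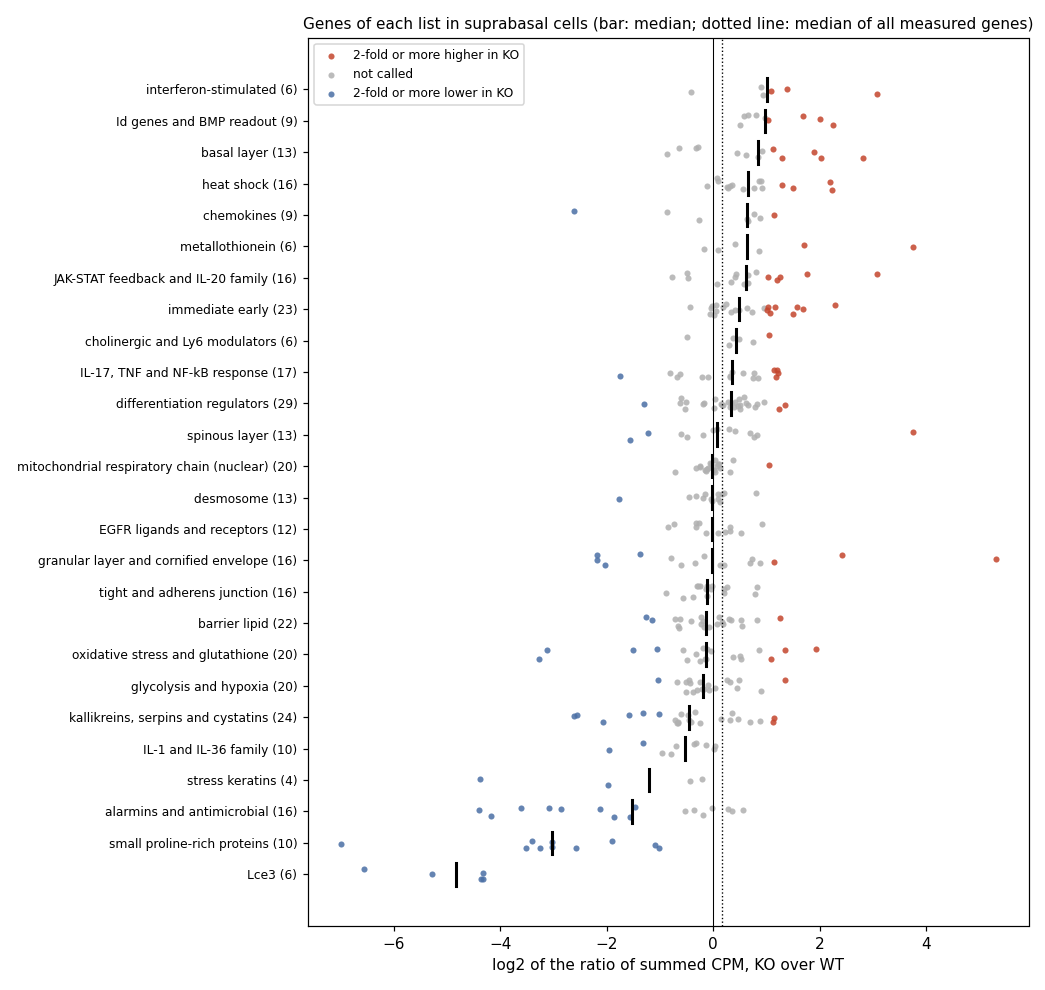
Each point is a measured gene of the list named at the left, with the number of measured genes in brackets; the horizontal axis is the log2 ratio of summed CPM, KO over WT. Black bars are list medians, running from 1.01 for interferon-stimulated genes to -4.83 for Lce3 genes, the dotted line at 0.17 is the median of all measured genes, and Lce3e and Ccl5, with 0 UMIs in KO, are not drawn.

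Regulators of differentiation had 2 of 29 called higher, 1 lower and a median log2 ratio of 0.34, which was -0.17 in thinned cells. Beside 5.08% called higher and 3.17% called lower over all measured genes, so few calls do not set this list apart. Klf4, a factor required for barrier formation and the most abundant, was at 1376.3 CPM in KO and 1051.3 CPM in WT cells. Trp63, the p63 factor that maintains the epithelial lineage, was at 55.4 CPM in KO and 23.6 CPM in WT cells, 2.34-fold higher. Maf, which acts in terminal differentiation, was at 70.5 CPM in KO and 27.7 CPM in WT cells. Prdm1 (Blimp1), a repressor active in upper layers, was at 77.6 CPM in KO and 190.9 CPM in WT cells, 2.46-fold lower. Ovol1, Grhl1 and Zfp750 had ratios between 0.881 and 1.14.

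In the basal layer list, 5 of 13 were called higher and 0 lower (median log2 ratio 0.84, but -0.57 with cells weighted equally). Postn, periostin, was at 68.0 CPM in KO and 9.70 CPM in WT cells; its ratio of 7.02 was 1.37 with cells weighted equally and 1.18 in thinned cells. Dst, which encodes the plakin of hemidesmosomes, was at 64.9 CPM in KO and 17.6 CPM in WT cells. Krt15, Col17a1 and Itga6, the other genes called higher, can each stem from free RNA, and 70.3% of the KO Krt15 UMIs lay in 1 cell. Ligands and receptors of the EGF receptor family had 0 of 12 called in either direction (median -0.03). Areg was at 327.8 CPM in KO and 362.0 CPM in WT cells, and Hbegf at 466.3 CPM in KO and 442.4 CPM in WT cells.

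Metallothioneins bind zinc and copper. Mt1, the most abundant, was at 4316.1 CPM in KO and 2374.5 CPM in WT cells, a ratio of 1.82 that was not called. Mt2 was at 3930.5 CPM in KO and 1207.9 CPM in WT cells, 3.25-fold higher (3.16 to 3.36). Mt4, the isoform of differentiating squamous epithelia, was at 507.4 CPM in KO and 37.8 CPM in WT cells, 13.4-fold higher (11.5 to 15.7). It was found in 59 of 79 KO cells and 30 of 163 WT cells, and its ratio was 8.92 without the 10% of cells with most UMIs. The zinc exporter Slc30a1 and the metal-sensing factor Mtf1 were at 84.4 and 76.1 CPM in KO and at 63.6 and 85.5 CPM in WT cells. Over the 6 measured genes, 2 were called higher and 0 lower, with a median log2 ratio of 0.63.

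The upstream sequences of Mt4 and Mt2 are shown because these neighbours on chromosome 8 differ in size of ratio. Capitals mark letters of the metal response element core (TGCNCNC), AP-1 letters (TGANTCA) and C/EBP letters (TTNNGNAA), on either strand, in the 250 bases before the RefSeq start (GRCm38.p6).
Mt4 (chr8:94136954-94137203, + strand): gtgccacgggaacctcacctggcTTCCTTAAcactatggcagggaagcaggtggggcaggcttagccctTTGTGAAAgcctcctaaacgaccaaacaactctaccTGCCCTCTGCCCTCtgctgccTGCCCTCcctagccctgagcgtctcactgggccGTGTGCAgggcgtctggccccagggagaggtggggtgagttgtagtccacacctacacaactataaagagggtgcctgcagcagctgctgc
Mt2 (chr8:94172368-94172617, + strand): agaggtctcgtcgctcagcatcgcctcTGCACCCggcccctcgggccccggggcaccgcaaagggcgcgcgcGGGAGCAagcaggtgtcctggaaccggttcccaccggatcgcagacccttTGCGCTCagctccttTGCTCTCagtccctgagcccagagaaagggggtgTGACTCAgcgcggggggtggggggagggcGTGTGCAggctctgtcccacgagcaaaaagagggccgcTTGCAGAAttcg
Mt4 holds 4 matches to the metal response element letters and Mt2 holds 5. Mt1, on the same chromosome, holds 1. At least 1 match occurs in 44.4% of 32851 promoters, so a match alone sets neither gene apart. How many promoters hold 4 or more matches was not counted.

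Glutathione and oxidative stress genes had 3 of 20 called higher and 4 lower (median log2 ratio -0.14). Gsta4, a transferase that removes the lipid peroxidation product 4-hydroxynonenal, was at 23.5 CPM in KO and 227.7 CPM in WT cells, 9.69-fold lower (7.68 to 12.4). Gstm1, a transferase of another class, was at 109.2 CPM in KO and 28.5 CPM in WT cells, 3.83-fold higher. The peroxidases Prdx1, at 769.0 CPM in KO and 789.3 CPM in WT cells, and Gpx1, at 761.9 CPM in KO and 584.8 CPM in WT cells, were not called. Glycolysis and hypoxia genes had 1 of 20 called higher (Egln3) and 1 lower (Pgk1), with a median of -0.19, and Gapdh was at 797.5 CPM in KO and 1138.2 CPM in WT cells. Nuclear genes of the mitochondrial respiratory chain had 1 of 20 called higher (Sdhb) and 0 lower, with a median of -0.02 that was 0.12 with cells weighted equally.

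The acetylcholine receptor subunits themselves were scarcely seen. Of 30 cholinergic and Ly6-family genes, 6 had enough UMIs, and among the receptor subunits only Chrnb1 was seen, with 2 UMIs in KO and 6 in WT cells. The cells held 3233957 UMIs in KO and 4950042 in WT, and a count of 0 in KO allows a level of up to 0.928 CPM, so lower levels were not detectable at this depth. Slurp1, a secreted Ly6 protein that binds nicotinic receptors, was at 50.1 CPM in KO and 24.4 CPM in WT cells, 2.05-fold higher (1.61 to 2.62), with 22.2% of KO and 39.7% of WT UMIs in 1 cell each. That call was lost among cells of like Krt1 plus Krt10 share: Slurp1 was at 8.59 CPM in KO and 8.36 CPM in WT cells with a share of 0.5 to 1%, and at 70.0 CPM in KO and 65.4 CPM in WT cells above 1.5%. The median log2 ratio of the 6 genes, 0.42 over all cells, was -0.06 in the lower and 0.10 in the higher of these ranges. Slurp2 was at 86.3 CPM in KO and 51.5 CPM in WT cells. Ly6d, the most abundant Ly6 gene, was at 7339.3 CPM in KO and 5943.4 CPM in WT cells.

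Several of the genes with the largest ratios belonged to no list. Dapl1, which encodes a death-associated-protein-like protein of differentiating epithelia, was at 398.6 CPM in KO and 46.5 CPM in WT cells, 8.58-fold higher (7.45 to 9.91). It was found in 68 of 79 KO and 38 of 163 WT cells, and its per-cell median was 2.59 UMIs per 10000 in KO and 0 in WT cells. Gadd45g, a growth arrest gene, was at 199.8 CPM in KO and 27.5 CPM in WT cells, a ratio of 7.27 that was 3.50 with cells weighted equally. Txnip, which restrains glucose uptake, was at 201.3 CPM in KO and 48.5 CPM in WT cells, 4.15-fold higher. Cdkn2d, a cell cycle inhibitor, was at 54.7 CPM in KO and 11.5 CPM in WT cells, 4.75-fold higher. C2cd4b, Cfap57 and Sostdc1 completed the higher genes, with ratios of 5.68, 5.68 and 5.27. The ratio of Cfap57 was 3.47 without the exclusions and 8.83 with cells weighted equally, and that of Sostdc1 was 3.39 at a 1% minimum and 1.38 in thinned cells. Thinning gave 26.8 for Dapl1. Fabp4, an adipocyte and endothelial fatty acid binding protein, had the largest ratio, 19.2, but 83.7% of its KO UMIs lay in 1 cell, and the ratio was 0.887 without the cells carrying markers of other lineages. Among lower genes, Akr1c18, a steroid-metabolising reductase, was at 7.42 CPM in KO and 73.9 CPM in WT cells, and Prr9, a proline-rich envelope gene, at 3.09 CPM in KO and 53.1 CPM in WT cells. In KO, 1 cell held 45.8% of the Akr1c18 UMIs and 70.0% of the Prr9 UMIs. Without the top cells the ratio of Prr9 was 0.0192 in place of 0.0582, and without the 10% of cells with most UMIs that of Akr1c18 was 0.0466 in place of 0.100.

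**Figure D4:**
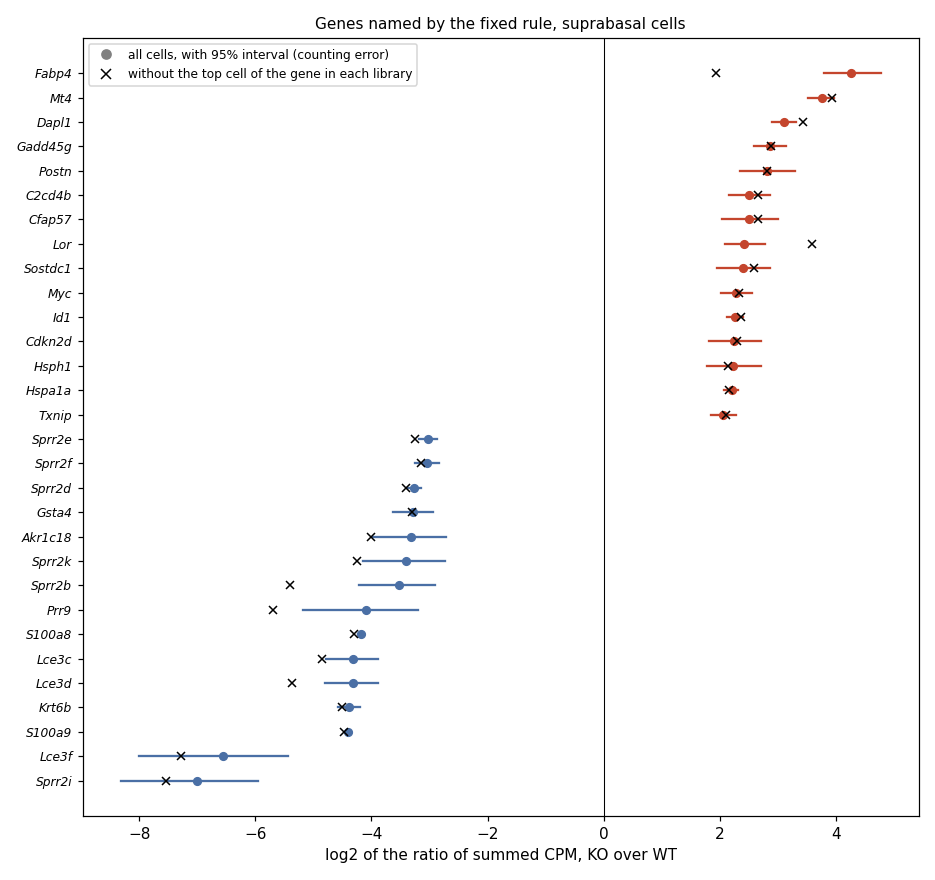
Circles are log2 ratios of summed CPM, KO over WT, for the 15 genes furthest up and the 15 furthest down by the naming rule, with 95% counting intervals as lines; crosses are ratios without the top cell of the gene in each library. Without the top cells 17 of the 30 ratios stayed within their interval and 13 moved, among them Fabp4 (19.2 to 3.80), Lor (5.37 to 12.0), Sprr2b (0.0872 to 0.0237), Prr9 (0.0582 to 0.0192) and Lce3d (0.0499 to 0.0241).

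Because KO cells had more Krt1 and Krt10, the comparison was repeated within 3 ranges of their share, which were set after the files were seen. From 0.5 to 1% lay 21 KO and 96 WT cells, from 1 to 1.5% lay 11 KO and 41 WT cells, and above 1.5% lay 47 KO and 26 WT cells. The middle range, with 11 KO cells, is thin. S100a8 was lower in KO in each range, by 17.5-fold, 29.0-fold and 15.8-fold. Dapl1 was higher in each, with ratios of 7.87, 13.3 and 4.20, and so was Mt4, with ratios of 5.64, 7.25 and 6.71. Krt6b was 9.87-fold lower in the lowest range (123.7 CPM in KO, 1221.2 CPM in WT) and 18.8-fold lower in the highest (66.4 CPM in KO, 1250.9 CPM in WT). Sprr2d was 31.7-fold lower in the lowest range (61.8 CPM in KO, 1958.4 CPM in WT) and 5.01-fold lower in the highest (254.7 CPM in KO, 1275.9 CPM in WT). For Krt14 the ratio was 1.03 (0.992 to 1.06) in the lowest range and 0.555 (0.539 to 0.572) in the highest. In WT it stayed at 7290.0, 8421.5 and 7083.2 CPM across the ranges, whereas in KO it was 7480.5, 6114.0 and 3932.0 CPM. Calm4 had ratios of 1.07, 1.13 and 1.32 within the ranges, against 1.77 over all cells. Sbsn had ratios of 0.447, 0.394 and 0.794, so it was over 2-fold lower in KO in the lowest and middle ranges. Krtdap had ratios of 0.737, 0.710 and 0.873.

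**Figure D5:**
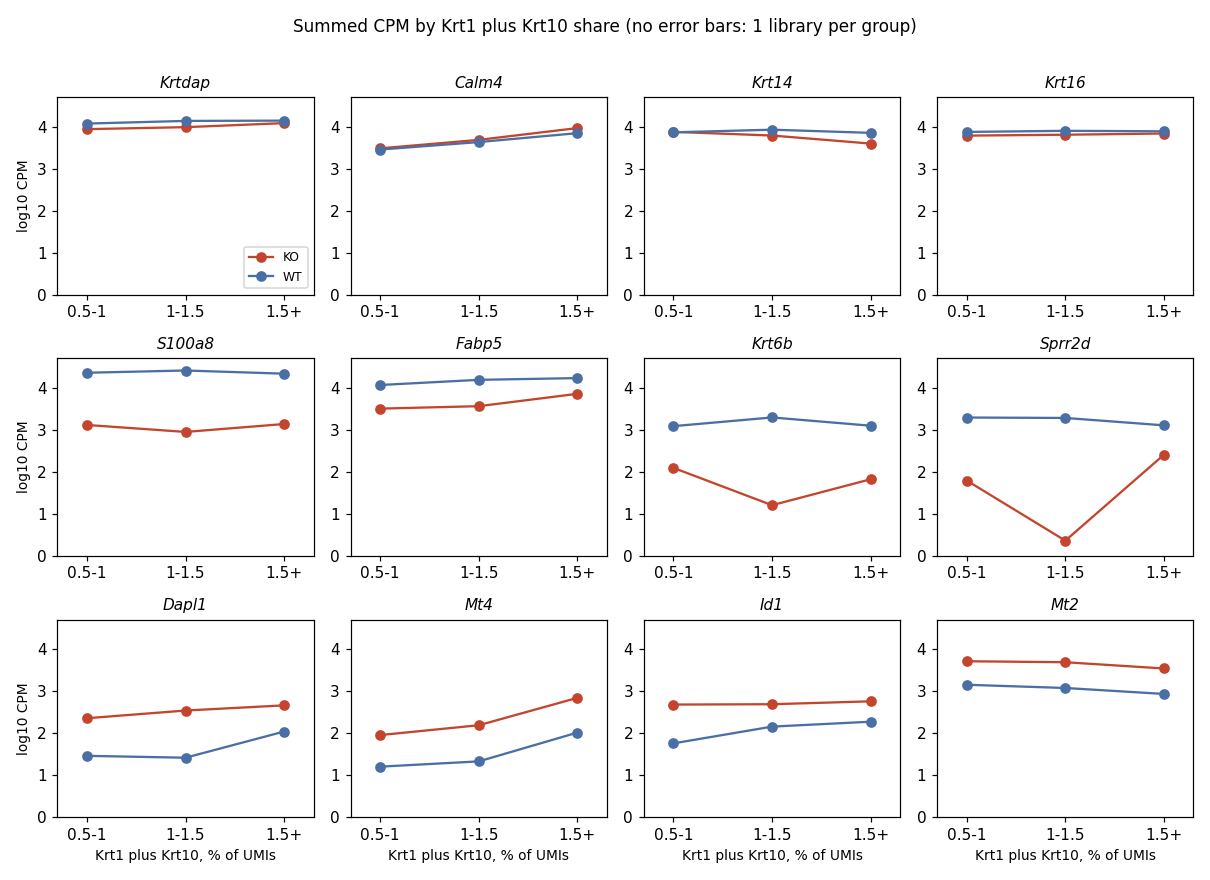
Points are log10 of summed CPM in 3 ranges of the Krt1 plus Krt10 share, low to high along the horizontal axis, for KO and WT; there are no error bars because each group is 1 library. The S100a8 lines stay apart, at 1302.0, 889.4 and 1371.0 CPM in KO against 22814.8, 25808.6 and 21673.0 CPM in WT, while the Krt14 lines meet in the lowest range.

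Moving from the lowest to the highest range within each library describes how the cells vary among themselves. Krt1 and Krt10 defined the ranges and their own increase is not a finding. Of 2061 genes compared, 20 were at least 2-fold higher and 8 at least 2-fold lower in the highest range in both libraries. Flg was 15.6-fold higher in KO and 9.54-fold higher in WT, but rested on few cells. Slurp1 was 8.15-fold higher in KO and 7.82-fold higher in WT, and Mt4 7.69-fold higher in KO and 6.46-fold higher in WT. Others named by the same rule were Slurp2, Nrtn, Clic3, Psapl1, Tdh, Serpinb12 and Nrarp, a feedback inhibitor of Notch signalling. In the other direction, Krt5 was 3.60-fold lower in KO and 3.20-fold lower in WT. Il33, an alarmin cytokine of basal-type cells, was 2.46-fold lower in KO and 3.59-fold lower in WT. In KO, 36.9% of the Krt5 UMIs and 28.1% of the Il33 UMIs lay in 1 cell each. The KO ratios of both genes are uncertain, because they were not recomputed without the top cell. Dcn and Ccl2, which fibroblasts express, were also lower in the highest range, and the lowest WT range held the shallower cells, with a median of 18951 UMIs against 47403.5 in the highest.

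Relations between genes across cells were computed for a few chosen pairs. Over cells with at least 10000 UMIs (75 KO, 107 WT), Spearman's correlation of S100a8 with S100a9 was 0.83 in KO and 0.98 in WT cells. The correlation of their sum with Krt6b was 0.12 in KO and 0.70 in WT cells, with Fabp5 it was 0.08 in KO and 0.66 in WT cells, and with Krt16 it was 0.10 in KO and 0.55 in WT cells. With BC100530 it was 0.39 in KO and 0.62 in WT cells, and with Defb6 it was -0.17 in KO and 0.07 in WT cells. The Krt1 plus Krt10 share had a correlation of 0.72 with Calm4 in KO and 0.45 in WT cells, and of -0.46 with Krt5 plus Krt14 in KO and 0.00 in WT cells. The rule cut this share off at 0.5%. Over all selected cells its 10th to 90th percentiles ran from 0.595 to 2.92% in KO and from 0.554 to 1.82% in WT. With ranges this unlike, the KO and WT correlations of the share cannot be compared directly. These are descriptions: cells of a library share its preparation, shares of the same total are tied to each other, and low counts such as those of Krt6b in KO weaken a correlation.

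The same ratios were taken in cells rich in Krt5 and Krt14 (at least 1% of UMIs, Krt1 plus Krt10 under 0.5%), of which there were 127 in KO and 328 in WT. No test of a difference between cell classes can be made with 1 library each, so the values stand side by side. The median log2 ratio of the small proline-rich list was -3.03 in suprabasal and -2.30 in Krt5 and Krt14 cells, and that of the alarmin list was -1.53 in suprabasal and -1.23 in Krt5 and Krt14 cells. For immediate early genes it was 0.48 in suprabasal and 1.13 in Krt5 and Krt14 cells, with 8 and 14 of 23 genes called higher. Over all 8141 genes measured in Krt5 and Krt14 cells, 5.13% were called higher and 3.61% lower, and the median was 0.08. For EGF receptor ligands and receptors it was -0.03 in suprabasal and 0.62 in Krt5 and Krt14 cells. Mt4 was at 12.0 CPM in KO and 2.54 CPM in WT Krt5 and Krt14 cells, well under its suprabasal level in both genotypes.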

How the data were processed

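Single-cell RNA was measured in 1 KO and 1 WT library. The authors deposited UMI counts per gene and cell as sparse matrices. Per the submitters' processing notes, Cell Ranger 3.0.2 and Seurat 3.0 were used with genome build mm10, and the file headers name software version 3.1.0. Their filters and settings are not given in the sources used here.

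Counts were analysed with Python 3.11.15, numpy 2.4.6, scipy 1.17.1 and pandas 2.3.3. Cells needed at least 1000 UMIs, 200 genes and at most 10% mitochondrial UMIs. No doublet caller was run. UMIs of the selected cells were summed per library and scaled to CPM over all genes. Ratios carry exact conditional 95% intervals and shares carry exact Clopper-Pearson intervals, both for counting error only. A gene was measured with at least 50 UMIs over both libraries. List medians place genes with 0 UMIs in a library at a floor of 3 counts. A gene was marked as possible free RNA when its level was under 20% of that in another cell class of the same library.

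Named genes were the markers, members of the gene lists, the 15 genes each way with at least 50 CPM by the interval bound nearest 1, and the 10 each way that differed most between the highest and lowest Krt1 plus Krt10 range in both libraries. Mitochondrial, ribosomal, haemoglobin, immunoglobulin, T cell receptor, sex-linked and unnamed gene models were left out of the 15. Members and lists were chosen with earlier results of these data known. The comparison classes, the ranges, the chromosome 3 region and 2 of the alternatives were chosen after seeing the data. Gene positions are from the GENCODE mm10 annotation and promoters from RefSeq (GRCm38.p6). The code was tested on simulated data. Some genes are not reported here.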

Additional observations from a re-analysis of the deposited data

Results flagged for a closer look

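Of 7019 genes measured in both cell classes, 8 were called in opposite directions in suprabasal cells and in Krt5 and Krt14 cells, of which 7 are given here. The difference between the classes was not tested. The class II genes H2-Ab1, H2-Aa and H2-Eb1, which present antigen, had ratios of KO over WT of 3.18, 5.08 and 6.22 in suprabasal cells and 0.285, 0.201 and 0.303 in Krt5 and Krt14 cells. In suprabasal cells, 1 KO cell held 92.6% of the H2-Ab1 UMIs, 89.2% of the H2-Aa UMIs and 80.0% of the H2-Eb1 UMIs. Without the top cells the suprabasal ratios were 0.255, 0.626 and 1.53.

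Crip1 had a ratio of 0.269 in suprabasal cells and 2.10 in Krt5 and Krt14 cells, with 59.9% of the suprabasal WT UMIs in 1 cell. Nlrc3 had a ratio of 0.383 in suprabasal cells and 6.77 in Krt5 and Krt14 cells, with UMIs in 6 KO and 5 WT suprabasal cells.

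In suprabasal cells, Hal and Sugp1 did not rest on 1 cell. Hal, the histidine ammonia-lyase that makes urocanic acid in the epidermis, had a ratio of 2.27 there (39.9 CPM in KO, 17.6 CPM in WT). In Krt5 and Krt14 cells the ratio of Hal was 0.282 (0.0738 to 0.773), at 1.65 CPM in KO and 5.85 CPM in WT. Sugp1 had a ratio of 2.12 in suprabasal cells and 0.472 (0.194 to 0.997) in Krt5 and Krt14 cells. The levels in Krt5 and Krt14 cells were low, and whether they rest on single cells was not examined.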

How the results depend on the processing

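No paired analysis was possible because each genotype is 1 library. Of 283 recomputed list medians, 246 stayed within their interval, 35 moved and 2 reversed. The interval of a list median, here and above, runs from the median lower bound to the median upper bound of its genes. It is wide for lists with low counts, such as Lce3 (-7.34 to -3.89) and granular genes (-0.36 to 0.31), so staying within it says little there. Of 352 recomputed ratios of named genes, 254 stayed, 96 moved and 2 reversed. All 25 list medians stayed within their interval with at least 2000 UMIs, at least 10000 UMIs, at most 5% mitochondrial UMIs, or without cells carrying markers of other lineages. Shallow cells weigh little in summed UMIs, so the UMI minimums could hardly move the medians. Most WT cells carrying such markers were also shallow. With cells weighted equally, 15 of 25 stayed, 8 moved and 2 reversed. The cause of a shift was not tested unless the setting itself changes which cells or genes are counted.

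The share of suprabasal cells was 0.604% in KO and 0.576% in WT at a Krt1 plus Krt10 minimum of 1%, 1.18% in KO and 2.86% in WT at 0.25%, 1.66% in KO and 2.43% in WT without the exclusions, and 2.37% in KO and 2.84% in WT with at least 10000 UMIs. Median-ratio scaling gave 243 genes called higher and 304 lower, and shifts the median of all genes by 0.17. Thinning left 28 called higher and 39 lower, among fewer measurable genes, and no filter on low counts gave 841 higher and 470 lower.

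List medians (log2) moved as follows. A 1% minimum gave 0.15 for spinous, -2.58 for small proline-rich, 0.11 for chemokine, 0.30 for immediate early and 0.81 for metallothionein genes. Without exclusions they were 0.02 for spinous, -3.25 for small proline-rich, 0.51 for heat shock and 0.22 for cholinergic genes. Median-ratio scaling gave -0.09 for spinous, -0.20 for desmosome, 0.31 for immediate early, 0.49 for heat shock, 0.47 for metallothionein, 0.26 for cholinergic and -0.19 for respiratory genes. Thinned cells gave 0.29 for spinous, 0.21 for desmosome, -0.15 for protease, -2.76 for small proline-rich, -0.17 for regulator and 0.12 for respiratory genes. Equal weight per cell gave 0.26 for spinous, 0.20 for desmosome, -0.26 for protease, 0.33 for immediate early, 0.24 for heat shock, 0.27 for metallothionein, 0.81 for cholinergic and 0.12 for respiratory genes, and reversed chemokine genes to -1.19 and basal genes to -0.57. No filter gave 0.30 for spinous and 1.38 for granular genes. Leaving out the 10% of cells with most UMIs gave 0.04 for spinous and 0.54 for heat shock genes, and leaving out the top cell of each gene gave 0.09 for chemokine genes. Among named genes, Fabp4 reversed to a ratio of 0.887 without cells carrying other lineage markers and Hsph1 to 0.590 in thinned cells.

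Depth limits genes under about 50 UMIs, and 1 library per genotype leaves the spread between animals unknown.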

Other observations

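The gene model Gm47283 was at 0.738 CPM in all kept KO cells and 435.2 CPM in all kept WT cells, and at 0.309 CPM in KO and 241.2 CPM in WT suprabasal cells. Whether it marks a difference in genetic background between the libraries was not tested. In fibroblast-type cells it was at 1.40 CPM in KO and 703.2 CPM in WT. Nnt, a gene partly deleted in the C57BL/6J substrain, was at 0.344 CPM in kept KO cells and 0.263 CPM in kept WT cells.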
